A study of Mus musculus with 12 samples.

Results

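Genes of the Eif group encode the eukaryotic translation initiation factors of the mouse, together with the kinases and binding proteins that control them. Members were the protein-coding genes whose mouse symbol starts with Eif. The rule used no measured value. It found 56 genes among the 30803 Ensembl genes tabulated for GSH and WT libraries, and the same 56 among the 17558 symbols tabulated for Cas9 and Ctrl libraries. A further 9 Eif entries of the first table, such as Eif1-ps1 and Eif3s6-ps1, are not protein-coding and were left out.

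Translation initiation brings the methionyl initiator tRNA and the small ribosomal subunit to the start codon of an mRNA. The GTPase eIF2 carries the tRNA, eIF2B recharges eIF2 with GTP, and kinases that phosphorylate the alpha subunit of eIF2 block that step under stress. At the other end of the process, eIF4E binds the mRNA cap, eIF4G is the scaffold that holds it, eIF4A unwinds the leader, and the large eIF3 complex bridges the mRNA to the ribosome. The 4E-binding proteins hold eIF4E away from eIF4G until the kinase mTORC1 phosphorylates them. Many carcinomas are known for high activity of this machinery.

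The samples are labelled as 4T1, a carcinoma line from the mammary gland of a BALB/c mouse, and RNA was sequenced from 4 groups named only by genotype: GSH, WT, Cas9 and Ctrl. GSH is set beside WT and Cas9 beside Ctrl. All groups carry the label culture, with growth in DMEM and serum; the labels neither expand GSH nor name a gene targeted with Cas9, nor say whether a group is 1 clone. Libraries analysed were 3 GSH, 3 WT, 3 Cas9 and 1 Ctrl (Ctrl 3), and Ctrl 1 and Ctrl 2 were not analysed here. Whether replicates came from separate cultures is not given, so p-values speak only to the variation among these libraries, and that may be technical.

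Reads recovered from the values summed to 18530387 to 30167230 in GSH libraries, 20295970 to 21952503 in WT, 31524351 to 33908524 in Cas9 and 37289074 in Ctrl 3. The sums for Cas9 and Ctrl 3 may be too low, as the smallest whole numbers that fit were kept there. Epithelial markers were abundant in all 10 libraries, with none of the 8 at 0. In GSH and WT libraries 14 leukocyte markers summed to 18.3 to 21.3 FPKM and 19.9 to 22.1 FPKM, nearly all of it Cd68, and the T-cell gene Cd3e was at 0.0132 FPKM or less. FPKM is the number of fragments of a gene scaled to its length and to the library total. The same leukocyte list summed to 894 to 1085 FPKM in Cas9 libraries and 1035 FPKM in Ctrl 3, transcripts that the label of cultured carcinoma cells does not account for. Transcripts of nasal and other secretory glands (Obp1a, Mup4 and others) reached 489 FPKM in GSH 2, 186 FPKM in GSH 3 and 345 FPKM in WT 3, with 1.61 FPKM in GSH 1, 12.4 FPKM in WT 2 and 1.94 FPKM in WT 1. The share of reads from the mitochondrial genome was 5.72 to 6.10% in GSH and 8.17 to 8.48% in WT.

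RefSeq promoters (GRCm38.p6, 250 bases before to 50 bases after the first listed start) were held for 44 of the 56 members. They are shown for 9 genes, from 110 bases before to 20 bases after the start. Eif2s3x, Eif2b5, Eif3f and Eif3l were chosen for a run of pyrimidines at the annotated start or close to it, here called a TOP-like start. It resembles the TOP run that marks mRNAs whose translation mTORC1 controls. Eif3b, Eif3c and Eif5a also rose and hold no such start in the window, and the helicase paralogs Eif4a1 and Eif4a2 moved in opposite directions in GSH libraries. These genes were picked after their values and motifs were seen. Capitals mark that run, counted where a C within 5 bases of the start was followed by 6 or more pyrimidines, and the motifs CACGTG (E-box), CCGGAAGT (ETS factors) and GGGCGGGG (SP factors) on either strand. None of these stands in the windows of Eif3b, Eif3c, Eif5a and Eif4a2. The run of pyrimidines could begin before the start or after it. In Eif2b5 and Eif3l it ended fewer than 6 bases past the start.
Eif2s3x, chrX:94212632-94212761, minus strand: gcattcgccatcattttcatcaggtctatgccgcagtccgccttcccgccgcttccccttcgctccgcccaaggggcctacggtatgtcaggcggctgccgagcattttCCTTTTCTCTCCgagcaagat
Eif2b5, chr16:20498707-20498836, plus strand: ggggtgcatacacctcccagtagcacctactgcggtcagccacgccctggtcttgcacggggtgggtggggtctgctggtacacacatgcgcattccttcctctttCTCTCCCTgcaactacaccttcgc
Eif3f, chr7:108934305-108934434, plus strand: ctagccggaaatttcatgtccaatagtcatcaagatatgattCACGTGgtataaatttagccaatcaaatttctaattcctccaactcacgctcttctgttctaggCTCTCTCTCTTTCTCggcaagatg
Eif3l, chr15:79075113-79075242, plus strand: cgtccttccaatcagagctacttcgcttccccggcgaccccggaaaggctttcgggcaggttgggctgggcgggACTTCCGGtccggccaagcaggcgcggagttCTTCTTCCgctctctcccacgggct
Eif3b, chr5:140419195-140419324, plus strand: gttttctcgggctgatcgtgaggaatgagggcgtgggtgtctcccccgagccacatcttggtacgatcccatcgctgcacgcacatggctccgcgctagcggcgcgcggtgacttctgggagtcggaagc
Eif3c, chr7:126566347-126566476, minus strand: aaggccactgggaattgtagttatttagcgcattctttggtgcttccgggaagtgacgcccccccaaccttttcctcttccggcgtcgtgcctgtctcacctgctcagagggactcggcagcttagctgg
Eif5a, chr11:69921939-69922068, minus strand: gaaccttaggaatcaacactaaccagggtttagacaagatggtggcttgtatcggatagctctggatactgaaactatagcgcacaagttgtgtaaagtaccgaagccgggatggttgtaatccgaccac
Eif4a1, chr11:69672404-69672533, minus strand: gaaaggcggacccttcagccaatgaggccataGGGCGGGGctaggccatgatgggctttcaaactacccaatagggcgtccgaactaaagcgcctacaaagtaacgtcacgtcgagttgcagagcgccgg
Eif4a2, chr16:23107358-23107487, plus strand: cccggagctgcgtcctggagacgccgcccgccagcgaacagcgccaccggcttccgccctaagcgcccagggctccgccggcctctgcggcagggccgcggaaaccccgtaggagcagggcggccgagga

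The TOP-like start was found in 6 of 44 members (13.6%), against 6.98% of the 8466 promoters of tested genes and 6.47% of 27025 promoters in all. Of the members that rose in GSH libraries and had a promoter, 5 of 21 held it, and of those that did not pass the test, 0 of 20 did. The 5 include Eif2b2, whose call was lost in 8 of 12 alternative fits. The remaining member with such a start, Eif2s3y, was not tested for change. CACGTG was in 18.2% of members and 10.6% of tested genes. CCGGAAGT was in 15.9% of members and 9.39% of tested genes. GGGCGGGG was in 31.8% of members and 35.0% of tested genes. These are counts of letters in windows, with no test, and say nothing of binding.

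Most Eif genes were higher in GSH than in WT libraries, by modest amounts, and 1 was lower. Of 56 members, 52 had a mean FPKM of 1 or more and were tested. Of these, 28 rose, Eif4a2 fell, and 23 did not pass the test (limma, Benjamini-Hochberg adjusted p under 0.05 over all 12283 genes tested). Over all genes 37.0% were called, with 20.6% higher and 16.4% lower, so calls upward made up a larger share of the members than of the table and calls downward a smaller one. The median log2 change, GSH minus WT, was 0.18 for the members and 0.02 for all genes. Every change lay between -0.37 and 0.44 on the log2(FPKM + 1) scale, and 44 of 52 were above 0.

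Summed over the 56 genes, the level was 3331, 3349 and 3309 FPKM in GSH 1, 2 and 3, against 2872, 2869 and 2938 FPKM in WT 1, 2 and 3. That is 1.02 to 1.03% of all FPKM in GSH libraries and 0.859 to 0.875% in WT libraries, without overlap. All 3 GSH libraries lay above all 3 WT libraries for 38 of 52 members, against 29.0% of all genes. All 3 lay below for Eif4a2 alone, against 23.5% of all genes. The mitochondrial share moved with the groups. With FPKM rescaled to leave out that genome, 26 members were higher and 1 lower, while the split over all genes turned to 1884 higher and 2521 lower, against 2533 and 2014 as deposited. The summed level of the 8 epithelial markers was 2147, 2251 and 2189 FPKM in GSH libraries and 2054, 2059 and 2130 FPKM in WT libraries, without overlap. That of the 8 fibroblast and endothelial markers was 12.4, 27.1 and 11.9 FPKM in GSH and 1.31, 7.08 and 14.0 FPKM in WT. Their part in the result was not tested. The gland transcripts were highest in GSH 2, GSH 3 and WT 3, so they were spread unevenly over the groups. With a term for these 3 libraries, 27 members were higher and 1 lower. The part of the gland transcripts in the result was not tested.

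**Figure D1:**
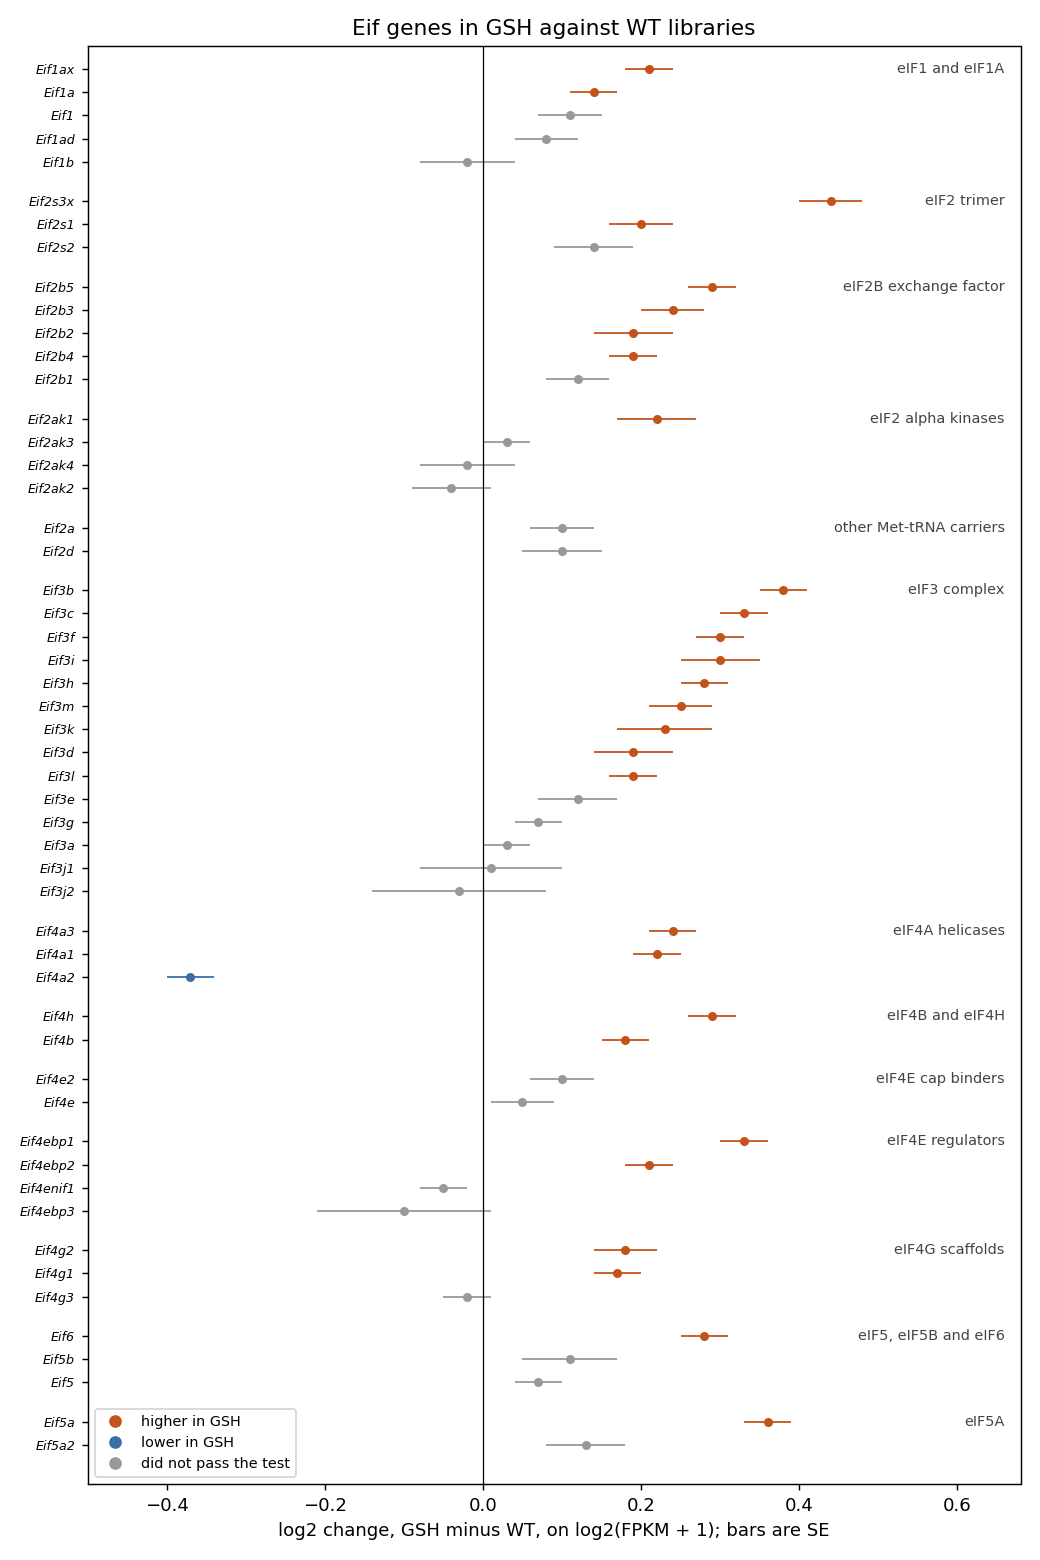
Change of the 52 tested Eif genes in GSH against WT libraries (x axis, log2 change on log2(FPKM + 1), GSH minus WT; y axis, genes by role, each role sorted by change). Points are limma estimates from 3 libraries a group with SE bars; 28 genes rose, Eif4a2 alone fell, and Eif2s3x rose most, by 0.44.

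Among the genes of start-codon selection, Eif1ax and Eif1a rose and Eif1, Eif1b and Eif1ad did not pass, beside 20.6% of all genes higher. eIF1 and eIF1A bind the small subunit and guard the choice of start codon. Eif1ax was at 31.8, 32.4 and 31.0 FPKM in GSH libraries, against 27.5, 27.2 and 27.5 FPKM in WT libraries. The groups did not overlap, and the log2 change was 0.21 ± 0.03 (SE, adjusted p = 0.00332). Its autosomal relative Eif1a changed by 0.14 ± 0.03 (SE, adjusted p = 0.0144). Eif1, the most abundant of the group, had 217, 214 and 208 FPKM in GSH libraries and 204, 186 and 201 FPKM in WT libraries, and its change of 0.11 ± 0.04 had an adjusted p of 0.0794. Its paralog Eif1b averaged 19.1 ± 1.5 FPKM in GSH and 19.3 ± 0.800 FPKM in WT (SD, n = 3 each).

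The eIF2 trimer rose through its gamma and alpha subunits. Eif2s3x, the X-linked gene of the gamma subunit that binds GTP and the initiator tRNA, was at 52.6, 53.1 and 53.5 FPKM in GSH libraries, against 36.8, 39.7 and 40.2 FPKM in WT libraries. All GSH values stood clear of all WT values, and the log2 change of 0.44 ± 0.04 was the largest of any member (adjusted p = 0.00178). Eif2s1, the alpha subunit that the stress kinases phosphorylate, averaged 30.6 ± 1.69 FPKM in GSH and 26.5 ± 0.538 FPKM in WT (SD, n = 3 each), with an adjusted p of 0.0140 that became 0.0508 without WT 1. Eif2s2, the beta subunit, changed by 0.14 ± 0.05 and did not pass (adjusted p = 0.0771). The Y-linked copy Eif2s3y lay between 0 and 0.0254 FPKM in these libraries and was not tested.

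Of the 5 subunits of eIF2B, 4 rose, beside 20.6% of all genes higher. Eif2b5, the catalytic epsilon subunit, was at 39.9, 41.5 and 41.5 FPKM in GSH libraries and 33.0, 32.5 and 34.7 FPKM in WT libraries. No library of a group reached into the other, and the change was 0.29 ± 0.03 (adjusted p = 0.00254). Eif2b3 (gamma) changed by 0.24, Eif2b4 (delta) by 0.19 and Eif2b2 (beta) by 0.19. Exons of Eif2b4 overlap those of Snx17 on the other strand, at 16.8 FPKM on average. The call of Eif2b2 rested on small margins: it was lost in 8 of 12 alternative fits, such as that with relative log expression scaling (adjusted p = 0.0513). Eif2b1, the alpha subunit, changed by 0.12 ± 0.04 and did not pass, although its 3 GSH libraries all lay above its 3 WT libraries.

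Of the 4 eIF2 alpha kinases 1 rose, a share near the 20.6% of all genes that were higher. Eif2ak1, the heme-regulated kinase HRI, rose, with 6.46, 6.71 and 6.91 FPKM in GSH libraries against 5.61, 5.28 and 5.95 FPKM in WT libraries and a log2 change of 0.22 ± 0.05 (adjusted p = 0.0142). Its exons overlap those of Aimp2 on the other strand, at 32.3 FPKM on average, and without strand the reads cannot be told apart. Eif2ak2, the double-stranded RNA sensor PKR, was at 6.84, 6.17 and 6.51 FPKM in GSH and 7.12, 6.51 and 6.52 FPKM in WT, so its groups overlapped. Eif2ak3 (PERK, the kinase of the endoplasmic reticulum) and Eif2ak4 (GCN2, the sensor of uncharged tRNA) changed by 0.03 and -0.02 and did not pass. Eif2a and Eif2d encode other proteins that can deliver initiator tRNA in place of eIF2. Eif2a was at 16.4, 15.3 and 15.7 FPKM in GSH and 14.8, 14.0 and 15.2 FPKM in WT; both genes changed by 0.10 and did not pass.

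Of 14 genes for eIF3 subunits, 9 rose, 5 did not pass and none fell, beside 20.6% of all genes higher and 16.4% lower. Their summed level was 1065, 1099 and 1074 FPKM in GSH libraries, against 908, 916 and 931 FPKM in WT libraries. Eif3b, a scaffold of the complex, was at 152, 153 and 149 FPKM in GSH and 112, 120 and 116 FPKM in WT, a change of 0.38 ± 0.03 (adjusted p = 0.00178). Its GSH values stood together, well above WT. Eif3c, a core subunit, was at 115, 119 and 118 FPKM in GSH and 94.2, 91.7 and 94.1 FPKM in WT (log2 change 0.33 ± 0.03, adjusted p = 0.00172).

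Eif3f and Eif3h, the pair of eIF3 subunits with an MPN domain, rose alike. Eif3f was at 49.0, 51.3 and 50.1 FPKM in GSH libraries, against 40.3, 40.1 and 41.5 FPKM in WT libraries (log2 change 0.30 ± 0.03, adjusted p = 0.00187). Eif3h was at 169, 176 and 169 FPKM in GSH and 138, 139 and 144 FPKM in WT (0.28 ± 0.03, adjusted p = 0.00222). Neither gene overlapped between groups. Eif3l, the most abundant subunit per length in the GSH and WT table and 1 of those with a TOP-like start, was at 224, 240 and 236 FPKM in GSH and 200, 205 and 207 FPKM in WT (0.19 ± 0.03, adjusted p = 0.00762).

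The other eIF3 genes that rose were Eif3i by 0.30, Eif3m by 0.25, Eif3k by 0.23 and Eif3d by 0.19, on the log2 scale. The calls of Eif3k and Eif3d were lost in 5 and 6 of 12 alternative fits, for example without WT 1 (adjusted p = 0.0612 and 0.0824). Eif3a, the largest subunit and the assembly platform of the complex, averaged 95.6 ± 2.68 FPKM in GSH and 93.6 ± 2.43 FPKM in WT (SD, n = 3 each). Eif3e changed by 0.12 and Eif3g by 0.07, and neither passed. The near-identical copies Eif3j1 and Eif3j2, whose shared reads the authors' counting may have split or left out, changed by 0.01 and -0.03.

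The eIF4A helicases went opposite ways. Eif4a2 was at 116, 110 and 112 FPKM in GSH libraries, against 146, 145 and 147 FPKM in WT libraries. Every GSH value lay below every WT value, and the log2 change of -0.37 ± 0.03 had the smallest p of all members (adjusted p = 0.00161). Eif4a1, its close paralog and the main cap-complex helicase, was at 249, 249 and 244 FPKM in GSH and 210, 210 and 217 FPKM in WT (0.22 ± 0.03, adjusted p = 0.00279). Eif4a3, the paralog that sits in the exon junction complex and serves splicing quality control, was at 95.0, 99.9 and 96.7 FPKM in GSH and 80.5, 81.8 and 84.2 FPKM in WT (0.24 ± 0.03, adjusted p = 0.00315). Thus both Eif4a1 and Eif4a3 rose while Eif4a2 fell, and the summed level of the helicases was 453 to 460 FPKM in GSH and 437 to 448 FPKM in WT. Exons of Eif4a2 overlap those of Rfc4 on the other strand, which averaged 12.2 FPKM here, and snoRNA genes lie inside it. Eif4a3l1, a copy of Eif4a3, lay between 0.125 and 0.309 FPKM and was not tested.

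**Figure D2:**
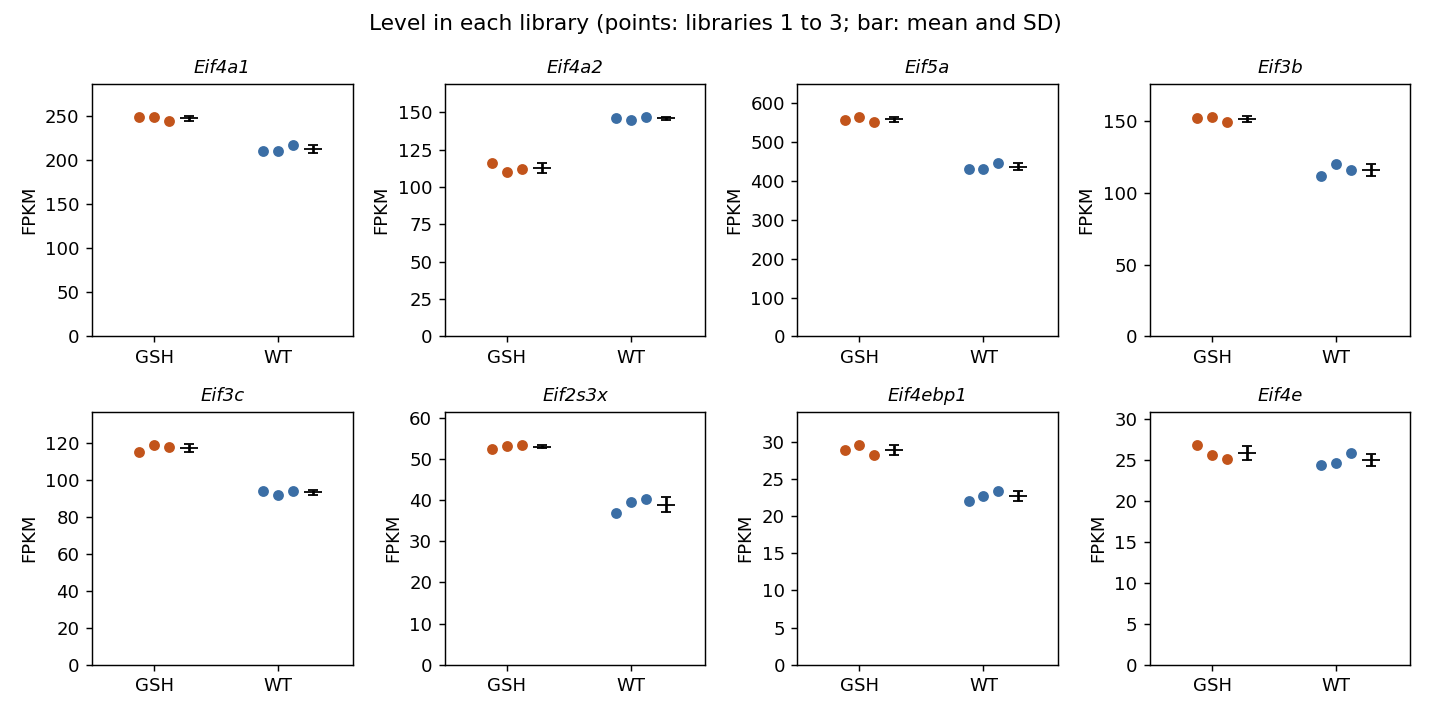
Level of 8 Eif genes in each library (y axis, FPKM from 0; x axis, group), with points for libraries 1 to 3 and a bar for the mean and SD. Eif4a2 is the 1 gene lower in GSH, at 110 to 116 FPKM against 145 to 147 FPKM in WT, whereas the groups of Eif4e overlap.

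The ratio of Eif4a1 to Eif4a2 within a library needs no scaling between libraries. It was 2.15, 2.27 and 2.18 in GSH 1, 2 and 3 and 1.44, 1.45 and 1.48 in WT 1, 2 and 3. The groups were far apart, with a log2 difference of 0.59. As both genes had already been seen to differ, the ratio is given with no test. Of the other 7 ratios of related genes, none differed by more than 0.19 on the log2 scale. Eif4g1 to Eif4g3 was 12.4, 12.3 and 12.7 in GSH and 11, 10.8 and 11 in WT, and Eif4ebp1 to Eif4ebp2 was 1.10, 1.13 and 1.06 in GSH and 0.994, 1.01 and 1.01 in WT. Eif4b to Eif4h was lower in GSH, at 1.44, 1.40 and 1.48, against 1.55, 1.57 and 1.52 in WT. Groups overlapped for none of those 3, while the ratio of Eif3j2 to Eif3j1 spread from 1.96 to 2.86 in GSH and from 1.89 to 2.84 in WT.

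**Figure D3:**
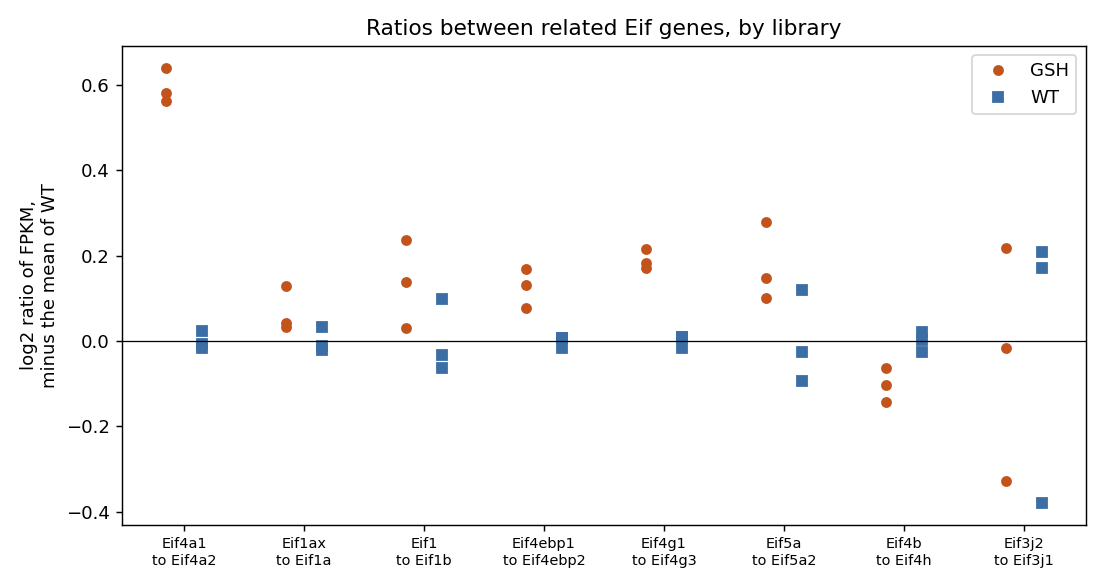
Ratios between related Eif genes in each library (y axis, log2 ratio of FPKM minus the mean of WT; x axis, pair), with GSH as circles and WT as squares. The 3 GSH libraries stand furthest from WT for Eif4a1 to Eif4a2, by 0.59 on average.

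Both helicase partners rose. Eif4b, which stimulates eIF4A, was at 91.6, 87.4 and 91.1 FPKM in GSH libraries, against 78.3, 80.0 and 78.9 FPKM in WT libraries (log2 change 0.18 ± 0.03, adjusted p = 0.00474). Eif4h, its smaller relative, was at 63.7, 62.3 and 61.7 FPKM in GSH and 50.4, 50.8 and 51.9 FPKM in WT (0.29 ± 0.03, adjusted p = 0.00178). Neither overlapped between groups. Over all genes 20.6% were higher, and for 29.0% every GSH library lay above every WT library.

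At the cap, the binding protein itself did not pass while 2 of its inhibitors did, beside 20.6% of all genes higher. Eif4e, the cap binder, was at 26.8, 25.6 and 25.1 FPKM in GSH libraries and 24.4, 24.6 and 25.8 FPKM in WT libraries. Those groups overlapped, and the 95% interval of its log2 change ran from -0.04 to 0.14. Eif4e2, a relative that serves in repression, changed by 0.10 and did not pass, and Eif4e3 (0.0421 to 0.137 FPKM) and Eif4e1b (0 to 0.0218 FPKM) were too low to test. Eif4ebp1, the best known 4E-binding inhibitor, was at 28.9, 29.6 and 28.3 FPKM in GSH and 22.1, 22.7 and 23.4 FPKM in WT (log2 change 0.33 ± 0.03, adjusted p = 0.00178). Eif4ebp2, its relative, was at 26.2, 26.1 and 26.6 FPKM in GSH and 22.2, 22.6 and 23.1 FPKM in WT (0.21 ± 0.03, adjusted p = 0.00308). Eif4ebp3, at 19 to 33 recovered reads in a GSH library, and Eif4enif1, the protein that carries eIF4E into the nucleus, changed by -0.10 and -0.05 and did not pass.

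Among scaffolds, Eif4g1 was at 167, 168 and 173 FPKM in GSH libraries and 149, 152 and 150 FPKM in WT libraries (log2 change 0.17 ± 0.03, adjusted p = 0.00504). Eif4g2, which lacks the eIF4E binding site and serves cap-independent initiation, rose by 0.18, and Eif4g3 changed by -0.02 and did not pass. Over all genes 20.6% were higher. Of the factors of subunit joining, Eif6, which keeps the large subunit from joining too early, rose: 62.9, 63.4 and 63.3 FPKM in GSH against 51.7, 50.1 and 54.3 FPKM in WT (0.28 ± 0.03, adjusted p = 0.00271). Eif5, the activator of the GTPase of eIF2, was at 69.4, 65.0 and 66.5 FPKM in GSH and 64.8, 64.4 and 62.7 FPKM in WT and did not pass (adjusted p = 0.161), nor did Eif5b, the GTPase that joins the subunits (0.11).

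Eif5a was the most abundant member per length in the GSH and WT table. Its product carries the amino acid hypusine and now counts as an elongation factor despite its name. It was at 557, 566 and 553 FPKM in GSH libraries and 431, 432 and 447 FPKM in WT libraries. The 2 groups were more than 100 FPKM apart, and the log2 change was 0.36 ± 0.03 (adjusted p = 0.00177). Its paralog Eif5a2 averaged 2.48 ± 0.130 FPKM in GSH and 2.19 ± 0.122 FPKM in WT (SD, n = 3 each) and did not pass (0.13, adjusted p = 0.108). Dhps and Dohh, the enzymes that make hypusine, changed by 0.01 and 0.12 and did not pass.

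Other genes of translation were read from 5 lists. Of 48 genes, 46 were tested, 23 rose, 2 fell and 21 did not pass, with a median log2 change of 0.13 beside 0.02 for all genes and 20.6% of all genes higher and 16.4% lower. Without WT 1, 15 rose and 1 fell, and with FPKM rescaled to leave out the mitochondrial genome 17 rose and 4 fell. Of 12 elongation and release factors tested, 9 rose and none fell, with a median of 0.24. Eef1a1, which delivers aminoacyl-tRNA, was at 3387, 3603 and 3491 FPKM in GSH libraries and 2499, 2618 and 2721 FPKM in WT libraries (0.42 ± 0.05, adjusted p = 0.00258, but 0.152 when no minimum of FPKM was set). Eef2, the translocase, was at 1349, 1481 and 1418 FPKM in GSH and 1049, 1111 and 1091 FPKM in WT (0.38 ± 0.05, adjusted p = 0.00271). For both, the groups were wide apart.

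Of 5 genes of poly(A) binding, 3 rose, such as Pabpc1, the main poly(A)-binding protein of the cytoplasm (309, 294 and 302 FPKM in GSH against 269, 270 and 274 FPKM in WT, adjusted p = 0.0102), and Pabpc4 (0.14, adjusted p = 0.0139, or 0.0515 without WT 1). Of 9 initiation helpers without an Eif symbol, 5 rose. For both lists, the share of all genes that were higher was 20.6%. Metap2, which trims the initiator methionine and binds eIF2, was at 27.1, 26.0 and 26.0 FPKM in GSH libraries and 22.8, 22.9 and 23.2 FPKM in WT libraries (adjusted p = 0.00412). The helicase Ddx3x changed by 0.15 (adjusted p = 0.0161, or 0.0599 without GSH 3).

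Of 7 genes of eIF2 alpha dephosphorylation and its stress targets, 2 rose, beside 20.6% of all genes. Ppp1r15a, the stress-induced phosphatase subunit GADD34, was at 6.62, 6.38 and 6.27 FPKM in GSH libraries, against 4.59, 4.71 and 4.51 FPKM in WT libraries (0.41 ± 0.04, adjusted p = 0.00178). Atf4, the transcription factor translated when eIF2 is phosphorylated, was at 83.1, 83.1 and 81.7 FPKM in GSH and 74.2, 75.2 and 76.5 FPKM in WT (0.13 ± 0.02, adjusted p = 0.00902). Its targets Ddit3 and Trib3 changed by -0.13 and -0.05 and did not pass, and the constitutive phosphatase subunit Ppp1r15b changed by -0.14 (adjusted p = 0.0573).

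Of 13 tested genes of mTORC1 and cap-binding signalling, 4 rose and 2 fell, beside 20.6% of all genes higher and 16.4% lower. The 2 that fell, a share near that of all genes, were the S6 kinases. Rps6kb2 was at 7.52, 8.0 and 7.92 FPKM in GSH libraries and 10.3, 10.8 and 10.4 FPKM in WT libraries (-0.39 ± 0.03, adjusted p = 0.00178), and Rps6kb1 changed by -0.14 (adjusted p = 0.0170). Akt1s1, an inhibitor within mTORC1, was at 13.4, 12.9 and 13.7 FPKM in GSH and 11.2, 11.4 and 11.3 FPKM in WT (0.22 ± 0.03, adjusted p = 0.00366). Groups overlapped for none of these 3. The call of Rps6kb1 was lost without WT 1 and again without WT 2. Larp1, Rheb and Rps6 also rose, by 0.13, 0.14 and 0.25 (adjusted p = 0.00746, 0.0208 and 0.0300). Mtor itself changed by 0.11 and did not pass (adjusted p = 0.0648).

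Between Cas9 and Ctrl libraries no Eif gene passed the test. With 3 Cas9 libraries and 1 Ctrl library, the spread came from the Cas9 libraries alone. Of 56 members 53 were tested, and 0 were called at adjusted p under 0.05 in limma; at an unadjusted p under 0.05 there were also 0 members, and 210 of all 11407 genes. Over all genes 0% were called. The median log2 change, Cas9 minus Ctrl, was 0.07 for members and -0.01 for all genes, with members between -0.17 and 0.35. All 3 Cas9 libraries lay above Ctrl 3 for 20 of 53 members, against 20.1% of all genes, and all 3 lay below for 6, against 22.5% of all genes. In such bulk samples, fewer cells of a type and less RNA per cell cannot be told apart.

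Among these libraries Cas9 3 stood apart from Cas9 1 and Cas9 2. It held the highest value for 32 of 53 members, against 33.3% of all genes tested. Summed over the 56 genes, the level was 4847, 4741 and 5466 FPKM in Cas9 1, 2 and 3 and 4569 FPKM in Ctrl 3, or 1.12, 1.13, 1.23 and 1.12% of all FPKM. In the same libraries the 14 leukocyte markers summed to 1085, 1084 and 894 FPKM in Cas9 1, 2 and 3 and 1035 FPKM in Ctrl 3. The 8 fibroblast and endothelial markers summed to 580, 1610 and 528 FPKM and 1074 FPKM. The 8 epithelial markers summed to 2015, 2690 and 2849 FPKM and 2650 FPKM. The part of these cell types in the Eif values was not tested. The median change of the members, 0.07 with all libraries, was 0.03 without Cas9 3, 0.11 without Cas9 2 and 0.07 without Cas9 1.

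The 6 members with the largest differences were all higher in Cas9. Eif1b was at 54.1, 47.2 and 45.7 FPKM in Cas9 libraries and 38.1 FPKM in Ctrl 3 (log2 change 0.35, 95% interval -0.06 to 0.76). Eif3j1, a loosely bound eIF3 subunit that governs its release, was at 16.8, 15.4 and 16.9 FPKM in Cas9 and 12.6 FPKM in Ctrl 3 (0.35, interval -0.02 to 0.72). Eif3h was at 422, 413 and 472 FPKM in Cas9 and 342 FPKM in Ctrl 3 (0.35, interval -0.06 to 0.75). For Eif1b, Eif3j1 and Eif3h, all Cas9 libraries lay above Ctrl 3, but every interval held 0. Eif3j2, the near-identical copy of Eif3j1, lay below Ctrl 3 in every Cas9 library: 9.80, 8.53 and 10.3 FPKM against 10.6 FPKM (-0.14). The authors' counting may have split or left out reads shared by these copies here too.

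Eif4ebp3 was at 5.30, 7.60 and 6.75 FPKM in Cas9 libraries and 4.99 FPKM in Ctrl 3, with a log2 change of 0.32. For Eif3e and Eif1a the difference came mostly from Cas9 3. Eif3e was at 257, 263 and 378 FPKM in Cas9 1, 2 and 3, against 236 FPKM in Ctrl 3 (0.32). Eif1a was at 37.4, 31.5 and 46.2 FPKM in Cas9 1, 2 and 3 and 30.7 FPKM in Ctrl 3 (0.30).

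By role, 13 of 14 genes for eIF3 subunits had a log2 change above 0, against 5381 of all 11407 genes. All Cas9 libraries lay above Ctrl 3 for 9 of the 14, against 20.1% of all genes, and the median was 0.12. The summed eIF3 level was 2068, 2048 and 2310 FPKM in Cas9 1, 2 and 3 and 1871 FPKM in Ctrl 3. The eIF4G scaffolds had a median of -0.11, with Eif4g1 at 124, 113 and 109 FPKM in Cas9 and 125 FPKM in Ctrl 3. Eif4a1 was at 569, 554 and 666 FPKM in Cas9 and 578 FPKM in Ctrl 3, Eif4a2 at 73.3, 63.7 and 72.4 FPKM in Cas9 and 72.6 FPKM in Ctrl 3. The Cas9 values of both helicases spanned Ctrl 3, and the interval for Eif4a2 ran from -0.45 to 0.33. Eif5a was at 424, 421 and 548 FPKM in Cas9 and 398 FPKM in Ctrl 3.

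**Figure D4:**
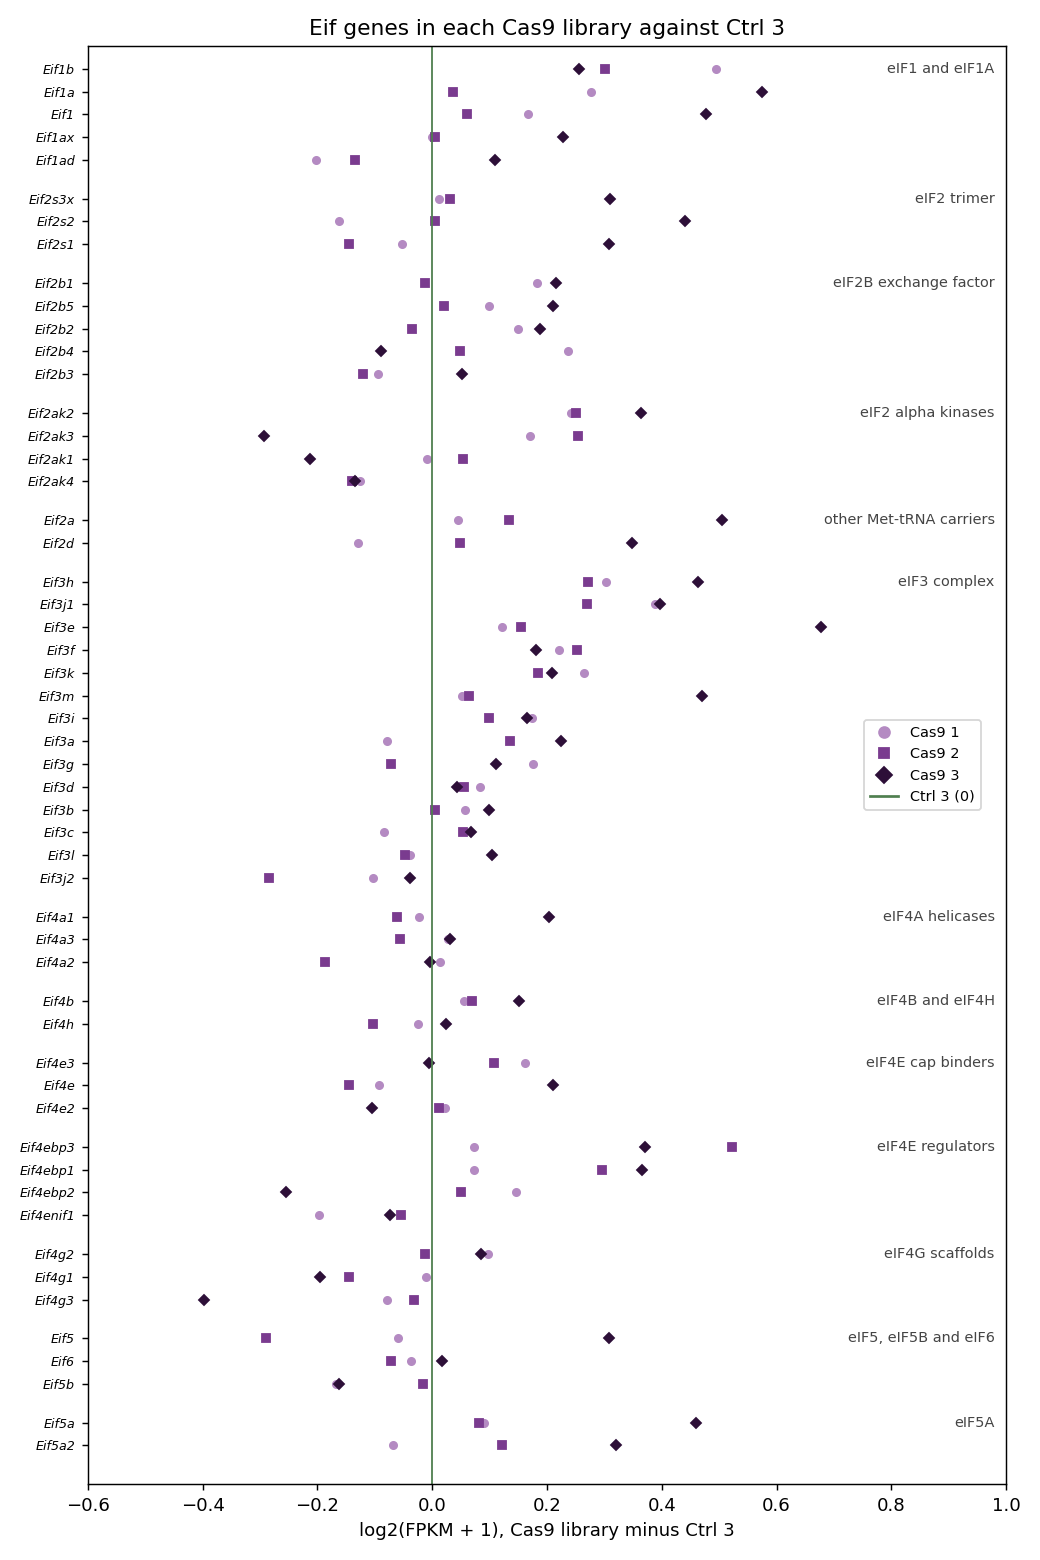
Level of the 53 tested Eif genes in each Cas9 library relative to Ctrl 3 (x axis, log2(FPKM + 1) of the Cas9 library minus that of Ctrl 3; y axis, genes by role). Circles, squares and diamonds are Cas9 1, 2 and 3; Cas9 3 is the highest of the 4 libraries for 32 genes.

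Levels should not be set across the tables. The gene length behind the FPKM, worked out from recovered reads and a library total that rests on 281 genes for Cas9 and Ctrl, was longer in the GSH and WT table for most members: the ratio of lengths had a median of 1.45 over 52 members and ran from 0.647 for Eif4ebp3 to 5.37 for Eif2s2. Where too few reads were recovered for Cas9 and Ctrl, the length there is too short and the ratio too high. Eif2s3y and Eif4a3l1 stayed under 0.03 FPKM in Cas9 and Ctrl libraries, and Eif4e1b was listed at 0 in all 4. Eif4e3, at 1.93 to 2.29 FPKM in Cas9 and 1.94 FPKM in Ctrl 3, was the 1 member tested there and not in GSH against WT.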

How the data were processed

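RNA of 10 libraries was analysed. Per the labels' protocols, Trizol was used for extraction and the NEBNext Ultra kit for the libraries. HISAT2 (2), Bowtie2 (2.2.3), HTSeq (0.6.0) and the build mm8 stand in the submitters' processing notes, without their roles; strand handling is not given in the sources used here. The deposited values carry no stated unit and were taken as FPKM, normalised by the authors to a library total, separately in each table, so tests were made within a table. FPKM values moved in whole multiples of 1 read (within at most 0.15 read), which gave reads for 100.0% of genes in the GSH and WT table and 99.99% in the Cas9 and Ctrl table. GENCODE M21 exon lengths then agreed on 1 library total for 95.9% of genes with a length in the first and only 2.25% in the second, whose totals are less certain. In the second, the smallest whole numbers that fit were kept, so reads of a gene may be too few there. The fits were tested on simulated data, with the same spread set for both tables rather than taken from the libraries. The outcome therefore says little of the changes that Cas9 against Ctrl could miss. Ensembl IDs were named from the reference tables (30190 of 30803 matched).

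Groups came from sample titles. limma 3.58.1 (R 4.3.3) was fitted with a trend on log2(FPKM + 1) for genes averaging at least 1 FPKM in the libraries compared, with group as the only term, two-sided, and adjusted over all genes tested at 0.05. With 1 added to each FPKM, log2 changes of low genes are understated. Values in every library are given for the 16 members with the smallest p in GSH against WT, the 6 with the largest change in Cas9 against Ctrl, the most abundant of each role and those that fell, and for 2 genes of most other lists; other names were chosen after their values were seen. The members and lists were chosen with earlier results of these data known. Alternatives changed the pseudocount, filter, scaling, libraries or model. Exons of 8 members overlap an opposite-strand gene at 1 FPKM or more, so reads of the pair may not be told apart. Motifs and paralog ratios were chosen after the data were seen.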

Additional observations from a re-analysis of the deposited data

How the results depend on the processing

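The Eif genes higher in GSH numbered 28, and 24 of these passed in all 12 alternative fits that changed a setting or left out a library; Eif4a2 was the 1 lower in each. Leaving out 1 library gave 24 to 28 higher, 15 to 22 other translation genes higher and 1 to 4 lower, and 2998 to 3671 genes called of all (4547 with all libraries, lowest without WT 1). Without the mitochondrial genome 4 other translation genes were lower. Whether the labels' replicate numbers pair the libraries could not be settled. Correlations were 0.48, -0.11 and 0.21 for numbers 1, 2 and 3, and ran from -0.49 to 0.39 between unlike numbers. A replicate block left 28 higher and 1 lower, with 3867 genes called of all. No filter gave 25 higher. Alternatives chosen after seeing the data were a fit to recovered reads by limma's voom, with 31 higher, and fits within libraries alike in gland transcripts. Within GSH 2, GSH 3 and WT 3, members called were 0 higher and 0 lower, other translation genes 0 and 0, and all genes 0 (3401 at an unadjusted p under 0.05). Within GSH 1, WT 1 and WT 2 these were 0, 0, 0, 0 and 4 (3797). Each has an arm of 1 library. The sign of the 28 genes could not change there, as no GSH library overlapped WT for any of them. For Cas9 against Ctrl, 0 genes were called under each alternative run; at an unadjusted p there were 189 to 552. Rescaling without the mitochondrial genome was not run there, as that table lists no such genes. Depth was 18530387 recovered reads or more, and Eif4ebp3, with 19 to 33 reads in GSH libraries, rests on the fewest reads of the members tested.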
